A study of Mus musculus with 36 samples.

Results

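The genes described here encode the proteins that dock synaptic vesicles, fuse them with the nerve terminal membrane and sense the calcium that triggers fusion. They were chosen by symbol, as the synaptotagmin (Syt), syntaxin (Stx), VAMP or synaptobrevin (Vamp), syntaxin-binding protein (Stxbp), SNAP, complexin (Cplx) and synapsin (Syn) genes whose name is the family stem, a number and at most 1 letter. The rule found 55 of the 18193 genes with a probe set of a single symbol. There were 16 synaptotagmins, 14 syntaxins, 7 VAMP genes, 6 syntaxin-binding proteins, 5 SNAP genes, 4 complexins and 3 synapsins. The SV2 stem of the rule found none, and its genes are given below with the other vesicle proteins. The genes had 133 probe sets, and where a gene had several, the brightest on average over the 36 arrays stood for it. For 17 genes that was the only probe set, and 8 were read from a probe set whose name warns that it may also read other transcripts. These 8 are Snap47, Stx18, Stx1a, Stx5a, Stx6, Syn3, Syt11 and Vamp3.

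The members' messenger RNA was read on Affymetrix mouse GeneChip arrays from male C57B1/6J mice that went through conditioned place preference, a test of whether an animal comes to prefer the compartment where it received a drug. The treated groups received modafinil, a wakefulness-promoting blocker of the dopamine transporter, at 65 mg/kg on the drug days of conditioning, which ran from day 3 to day 10. The vehicle groups received saline instead, and both also received saline on the alternate days. Brains were taken on day 11, 24 h after the last dose, and tissue was punched from the ventral tegmental area (VTA, the midbrain site of dopamine neurons), from the nucleus accumbens (NAC, in the ventral striatum) or from prefrontal cortex (PFC). VTA and NAC each had 5 arrays per treatment and PFC had 8. For VTA and NAC the RNA of 2 tissue pieces went into an array unless 1 piece had poor RNA. Which arrays come from the same mouse is not in the labels, so p-values measure the spread between these arrays.

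Vesicle fusion is driven by SNARE proteins: a VAMP on the vesicle pairs with a syntaxin and SNAP-25 on the plasma membrane. Complexins clamp and activate the partly assembled SNARE complex, synaptotagmins bind calcium and trigger fusion, Munc18-type syntaxin-binding proteins guide assembly, and synapsins tether the reserve pool of vesicles. Several steps have paired isoforms. SYT1 and VAMP2 serve most forebrain synapses, and SYT2 and VAMP1 are known from fast synapses of the brainstem, midbrain and spinal cord. Many other syntaxins and VAMPs work in the Golgi, in endosomes or in autophagy in every cell.

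Values are log2 signals, so a difference of 1 is a 2-fold change. The median signal of an array was 6.76 to 6.81 for VTA, 6.79 to 6.90 for NAC and 7.20 to 7.27 for PFC, which was on another scale, so no level was tested against PFC. Marker genes went with the labelled regions. Dopamine neuron markers averaged 8.20 to 9.78 over the vehicle VTA arrays and 6.31 to 6.45 over the vehicle NAC arrays. Striatal markers averaged 10.97 to 11.998 over the NAC arrays and 7.99 to 8.38 over those of VTA. The cortical excitatory markers averaged 9.72 to 10.11 in vehicle PFC, but also 7.42 to 9.34 in vehicle NAC against 5.94 to 6.44 in vehicle VTA. The vehicle NAC arrays thus differed among themselves in cortical marker level. In punched tissue, fewer cells of a type and less RNA per cell cannot be told apart.

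Vehicle NAC and vehicle VTA differed in the level of single members of most families. On the probe sets used, Syt2 and Vamp1 were 4.7-fold and 4.29-fold lower in NAC, while Syt6 and Cplx2 were 3.76-fold and 2.97-fold higher. Of the 51 members tested with limma, 13 were higher in NAC (adjusted p under 0.05), where 28.7% of all tested probe sets were. Another 21 were lower, against 27.8% of all. The median difference of the members was −0.16, against 0.007 over all probe sets tested, and their median size of difference was 0.31 against 0.25. The 5 arrays of each region did not overlap for 21 members, 8 of them higher in NAC, and for 41.4% of all tested probe sets. The count of members without overlap was close to its share over the whole array, and lower calls took a larger share of the members than of all probe sets, a difference that was not tested. Cplx4, Stx11, Stx19 and Syt10 were below the filter, which kept probe sets with a mean at or above the 40th percentile. Cplx3 passed it only through its NAC arrays, since its VTA mean lay below the filter's value of 6.20. It had to differ, so its values are a description, although the count of 13 and the 8 without overlap that were higher in NAC include it.

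**Figure D1:**
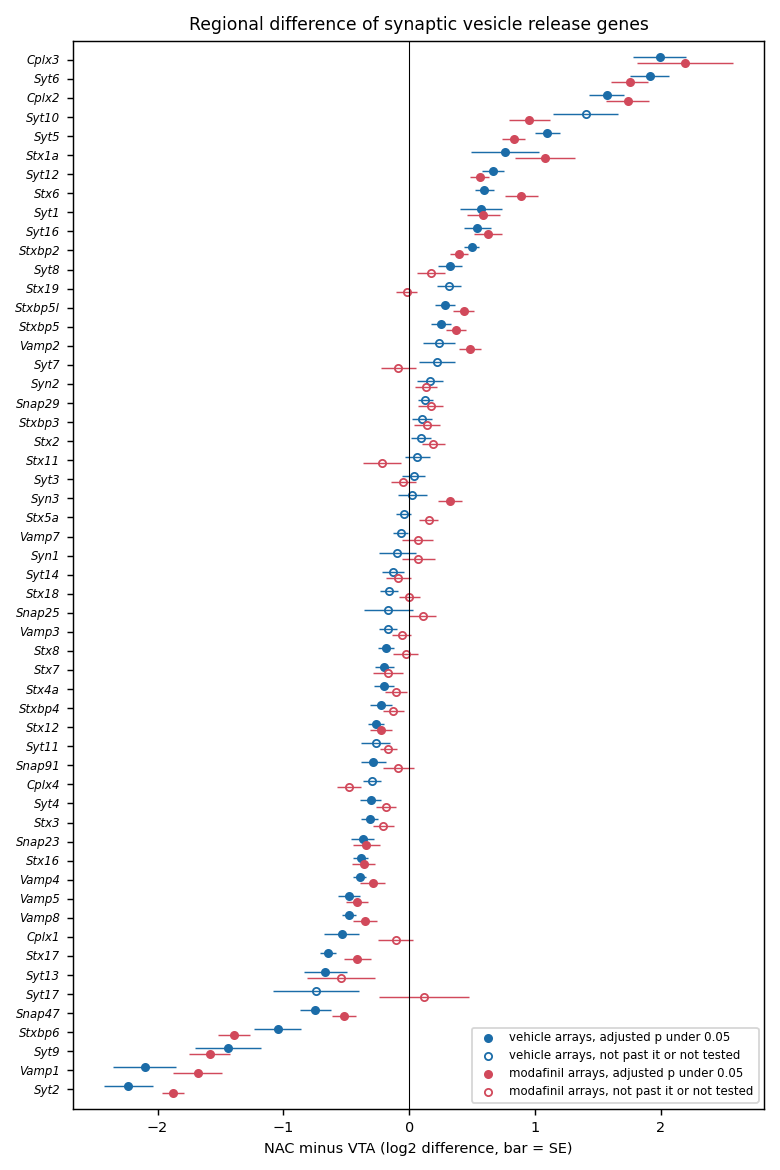
Difference between NAC and VTA (log2, x axis) for each release gene (y axis), in vehicle arrays (blue) and modafinil arrays (red), 5 arrays per region and treatment. Bars are standard errors from limma, filled points have an adjusted p under 0.05, and open points did not pass it or were below the filter. Syt2 and Vamp1 lie lowest, at −2.23 and −2.10 in vehicle, and Cplx3, which passed the filter only through NAC, and Syt6 highest, at 1.99 and 1.91.

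Among the synaptotagmins, the calcium sensor Syt2 showed the largest difference. Its values were 9.01, 9.83, 9.36, 8.53 and 9.34 in the vehicle VTA arrays and 7.09, 6.73, 7.17, 7.01 and 6.92 in the vehicle NAC arrays. Every VTA array was above every NAC array, and the difference was −2.23 (SE 0.19, adjusted p = 1.64e-06), 4.7-fold. A further probe set of Syt2 that passed the filter differed by 0.16 (SE 0.18, adjusted p = 0.475), so the difference was seen on the brighter of these probe sets only. With the mean of its probe sets the difference of Syt2 was −0.68 in vehicle and −0.63 in modafinil arrays, both past the test. Syt9, another sensor of fast release, was also lower in NAC. It read 8.73, 8.81, 8.85, 10.27 and 8.71 in VTA and 7.39, 7.91, 7.43, 7.64 and 7.82 in NAC, a difference of −1.44 (SE 0.27, adjusted p = 0.00064). The groups did not overlap, and vehicle VTA array 4 was the high one.

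Syt1, the main calcium sensor of forebrain synapses, was higher in NAC. Its values were 12.17, 11.64, 11.73, 12.10 and 11.97 in VTA and 11.87, 12.84, 12.67, 12.69 and 12.38 in NAC. NAC array 1 fell inside the VTA range and the other 4 lay above it, and the difference was 0.57 (SE 0.17, adjusted p = 0.0127). Syt6 rose from 6.38, 6.59, 6.41, 7.05 and 6.21 in VTA to 8.50, 8.01, 8.43, 8.60 and 8.65 in NAC, with no overlap (difference 1.91, SE 0.16, adjusted p = 1.05e-06, 3.76-fold). Syt5 was higher by 1.10 (SE 0.10, adjusted p = 2.25e-06), with VTA arrays at 7.12 to 7.69 and NAC arrays at 8.47 to 8.67. Syt12, at 7.39 to 7.75 in VTA and 8.11 to 8.52 in NAC, was higher by 0.67, and Syt16 by 0.54. Syt8 differed by 0.32 with overlapping arrays.

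Of the other synaptotagmins, Syt13 was lower in NAC by a difference of −0.67 (SE 0.17, adjusted p = 0.00598). Its arrays overlapped, at 9.59 to 10.09 in VTA and 8.50 to 9.63 in NAC, and with the mean of its probe sets it did not pass (−0.37, adjusted p = 0.149). Syt4, a form carried on dense-core vesicles, was lower by a difference of −0.31, without overlap. Syt7, the slow high-affinity sensor of asynchronous release, differed by 0.22 (SE 0.14, adjusted p = 0.201), and Syt11 by −0.27 (SE 0.12, adjusted p = 0.066). Syt17 differed by −0.74 with an SE of 0.35 (adjusted p = 0.0885), and its NAC arrays ranged from 7.57 to 9.97. In all, 6 of 15 tested synaptotagmins were higher in NAC, 4 were lower and 5 did not pass the test. Higher calls made up 28.7% of all tested probe sets and lower calls 27.8%, and no family was tested against these shares.

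The vesicle SNARE Vamp1 read 10.42, 10.93, 10.83, 9.72 and 10.69 in vehicle VTA and 8.87, 8.58, 8.60, 8.41 and 7.61 in vehicle NAC. No arrays of the regions overlapped, and the difference was −2.10 (SE 0.25, adjusted p = 2.47e-05), 4.29-fold. Its other tested probe set differed by −1.34 (SE 0.24, adjusted p = 0.000463). Vamp2, the main synaptobrevin of the forebrain, read 10.00, 9.91, 9.82, 10.30 and 10.10 in VTA and 10.01, 10.66, 10.26, 10.37 and 10.01 in NAC. These overlapped, and the difference was 0.24 (SE 0.13, adjusted p = 0.136); its other probe set differed by 0.27 (adjusted p = 0.0494). With the mean of both, Vamp2 was higher in NAC (0.25, adjusted p = 0.0108). On the probe sets used, no VAMP gene was higher in NAC. Of 7 tested, 4 were lower, where 27.8% of all tested probe sets were, and the difference from that share was not tested. Besides Vamp1 these were Vamp8, an endosomal form (−0.48), Vamp5 (−0.48) and Vamp4, a form of the Golgi and endosomes (−0.40). Another probe set of Vamp4 was higher in NAC by 0.22 (adjusted p = 0.0189), so its direction depended on the probe set.

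The complexins, which clamp and then promote fusion, went in both directions. Cplx2 read 10.74, 10.97, 10.69, 10.59 and 10.72 in VTA and 11.76, 12.44, 12.38, 12.36 and 12.63 in NAC, without overlap (difference 1.57, SE 0.14, adjusted p = 1.95e-06, 2.97-fold). Its 2 other probe sets differed by 1.13 and 1.11. Cplx3, known from ribbon synapses of the retina and from subplate neurons of the cortex, read 6.01, 5.27, 5.55, 5.66 and 5.63 in VTA and 7.75, 7.95, 7.43, 8.10 and 6.86 in NAC. Its means differed by 1.99, with the VTA arrays under the filter, and the lowest NAC value was that of array 5. Cplx1 went the other way, from 12.53, 12.58, 12.19, 11.80 and 12.17 in VTA to 11.50, 11.85, 11.92, 11.76 and 11.53 in NAC. Its difference was −0.54 (SE 0.14, adjusted p = 0.00689), and VTA array 4 lay within the NAC range.

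**Figure D2:**
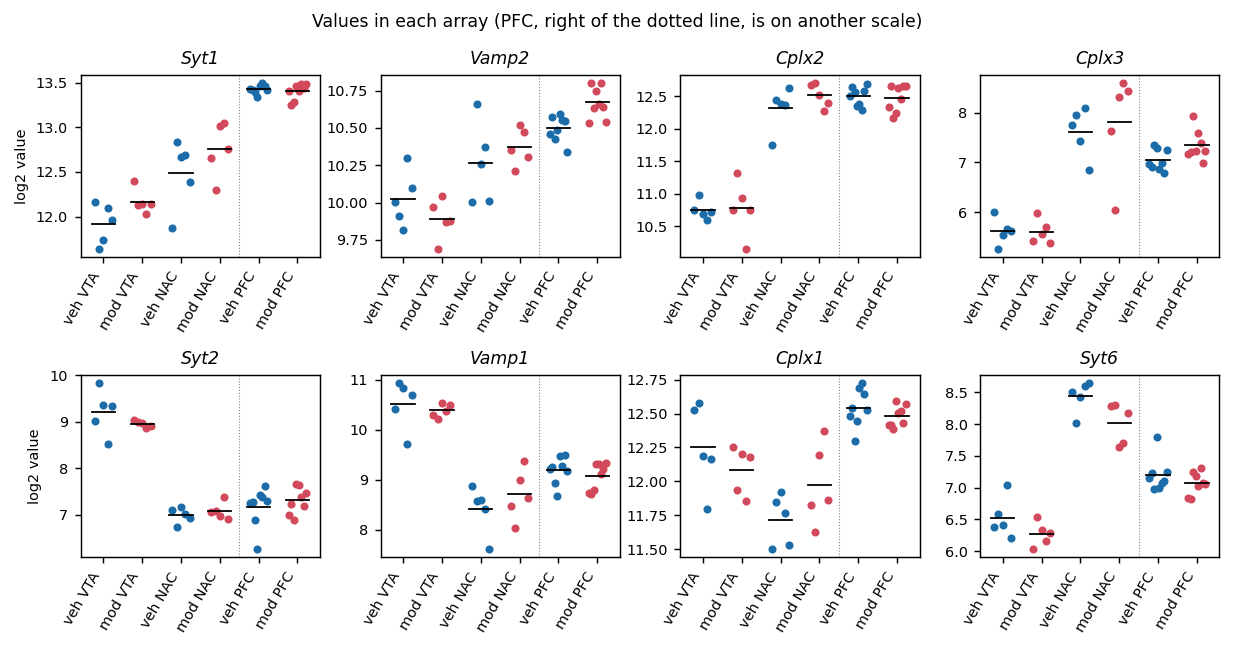
Log2 value (y axis) of 4 pairs of release genes in each array, by region and treatment (x axis), with vehicle in blue, modafinil in red and black lines at the group means. PFC, right of the dotted line, is on another scale. Syt2 and Vamp1 are higher in VTA than in NAC, and Cplx2, Cplx3 and Syt6 are higher in NAC, where vehicle arrays read 8.01 to 8.65 for Syt6.

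The promoters of the 4 members with the largest regional differences among those with 1 promoter entry are shown, to set the sequences of the genes higher in VTA beside those higher in NAC. They are from RefSeq (GRCm38.p6), 250 bases before to 50 after the transcription start, 5′ to 3′ on the gene's strand. Vamp1 (chr6:125215331-125215630, + strand) and Syt9 (chr7:107370540-107370839, + strand) were lower in NAC, and Cplx3 (chr9:57606232-57606531, − strand) and Cplx2 (chr13:54302306-54302605, + strand) were higher. Capitals mark a GC box (GGGCGG, or CCGCCC on the other strand) or an E-box (CACGTG).
Vamp1: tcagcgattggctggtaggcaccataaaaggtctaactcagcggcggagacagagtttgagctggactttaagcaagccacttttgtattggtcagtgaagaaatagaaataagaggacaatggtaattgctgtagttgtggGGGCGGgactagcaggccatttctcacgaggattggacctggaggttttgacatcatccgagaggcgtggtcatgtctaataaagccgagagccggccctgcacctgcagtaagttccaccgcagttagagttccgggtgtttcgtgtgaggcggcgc
Syt9: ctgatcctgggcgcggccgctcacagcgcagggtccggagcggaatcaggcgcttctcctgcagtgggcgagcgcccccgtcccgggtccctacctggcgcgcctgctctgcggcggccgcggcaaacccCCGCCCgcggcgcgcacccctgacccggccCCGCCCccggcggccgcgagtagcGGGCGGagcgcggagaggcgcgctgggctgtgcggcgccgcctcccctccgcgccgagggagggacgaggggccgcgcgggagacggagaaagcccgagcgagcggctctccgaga
Cplx3: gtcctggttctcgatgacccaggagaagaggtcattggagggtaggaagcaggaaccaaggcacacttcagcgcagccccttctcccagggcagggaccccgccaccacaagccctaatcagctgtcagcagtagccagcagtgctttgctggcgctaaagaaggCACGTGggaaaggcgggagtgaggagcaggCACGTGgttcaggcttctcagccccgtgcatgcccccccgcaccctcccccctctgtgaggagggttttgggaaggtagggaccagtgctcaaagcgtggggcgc
Cplx2: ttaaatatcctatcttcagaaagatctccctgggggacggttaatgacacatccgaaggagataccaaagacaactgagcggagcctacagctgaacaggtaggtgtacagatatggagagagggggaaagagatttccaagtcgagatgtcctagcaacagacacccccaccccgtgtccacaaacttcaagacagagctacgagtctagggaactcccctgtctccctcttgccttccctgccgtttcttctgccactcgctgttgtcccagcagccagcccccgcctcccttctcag
The Syt9 promoter held 3 GC boxes, 49 CG pairs and 79.3% G and C, and that of Vamp1 held 1 GC box and 51.7% G and C. The Cplx3 promoter held 2 E-boxes and no GC box, and that of Cplx2 neither motif, 9 CG pairs and 53.3% G and C.

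Promoter entries were matched for 43 members, 55 promoters in all, of 32851 in the table. Motifs were searched on both strands. A GC box was present in 35 of the 55 (63.6%) and in 35.7% of all promoters of the same length. An E-box was present in 7 (12.7%, against 7.15% of all), in Cplx3, Stx6, Stxbp2, Syt14, Syt6 and Vamp4. A TATAAA box was present in 2 (3.64%, against 13.6%), in Stx2 and Stx3, and the cyclic AMP response element TGACGTCA in 2 (3.64%, against 1.79%), in Stxbp3 and Syn1. No motif overlaps another in these letters. Several promoters of a gene can share bases, so the 55 are not independent, and a match is a description of the letters.

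The neuronal target SNAREs Stx1a and Snap25 differed less than Syt2, Vamp1 and Cplx2 on the probe sets used. Stx1a, the plasma membrane syntaxin of nerve terminals, read 9.09, 9.06, 8.99, 9.73 and 9.18 in vehicle VTA and 9.68, 11.05, 10.01, 9.90 and 9.21 in vehicle NAC. A difference of 0.76 (SE 0.28, adjusted p = 0.0332) came with overlapping arrays and was lost without any 1 of VTA arrays 1, 2, 3 and 5 and NAC arrays 3 and 4 (adjusted p up to 0.0702), with a value between 0.49 and 0.95 over all fits that left out 1 array. Snap25, its partner, read 13.29, 13.34, 13.42, 13.22 and 13.46 in VTA and 12.29, 13.50, 13.44, 13.40 and 13.27 in NAC. NAC array 1 lay far below the others, and the 99th percentile of its signal was 11.43, where the highest NAC array had 11.93. The difference was −0.17 (SE 0.19, adjusted p = 0.487), or 0.057 without that array. The other probe set of Snap25 was higher in NAC by 0.41 (adjusted p = 0.00242).

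Of 12 tested syntaxins, 2 were higher in NAC and 7 lower, where 28.7% and 27.8% of all tested probe sets were. The differences from these shares were not tested. Stx6, a syntaxin of the trans-Golgi network and endosomes, was higher by 0.60 (SE 0.07, adjusted p = 2.54e-05), at 9.60 to 9.74 in VTA and 10.12 to 10.48 in NAC, although 1 of its other probe sets was lower (−0.20, adjusted p = 0.0359). Stx17, which acts in autophagosome fusion, was lower by a difference of −0.64 (SE 0.06, adjusted p = 3.12e-06), at 8.97 to 9.07 in VTA and 8.30 to 8.55 in NAC. Stx16, of the trans-Golgi network, differed by −0.39, and Stx3 and the endosomal Stx12 by −0.31 and −0.26, all without overlap. Stx4a (−0.20), Stx7 (−0.20) and Stx8 (−0.19) were lower with overlapping arrays. Of the 5 SNAP genes, Snap47 was lower (−0.75, SE 0.12, adjusted p = 0.000271), as were Snap23, the widely expressed relative of Snap25 (−0.37), and Snap91, a clathrin adaptor of vesicle retrieval that shares only the name (−0.28).

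Among the syntaxin-binding proteins, Stxbp6 (amisyn), which binds syntaxin in place of a VAMP, read 9.99, 9.89, 9.96, 10.87 and 10.60 in VTA and 8.94, 9.28, 9.11, 9.19 and 9.54 in NAC. Both regions were apart, with no overlap (difference −1.05, SE 0.19, adjusted p = 0.000532). Stxbp2, of the Munc18 type, was higher in NAC by 0.50 (SE 0.06, adjusted p = 2.03e-05), at 7.60 to 7.79 in VTA and 8.10 to 8.26 in NAC, and by 0.95 with the mean of its probe sets. The tomosyns Stxbp5 and Stxbp5l, which hold syntaxin in inactive complexes, were higher by 0.26 and 0.29. Another probe set of Stxbp5 was lower (−0.27, adjusted p = 0.00613) and 1 more was higher (1.18, adjusted p = 9.76e-09), so its value rests on the probe set chosen. None of the 3 synapsins passed the test. Syn1 differed by −0.09 (SE 0.15, adjusted p = 0.614), Syn2 by 0.16 (SE 0.10, adjusted p = 0.198) and Syn3 by 0.02 (SE 0.11, adjusted p = 0.865). Syn2 passed after quantile normalization (0.24, adjusted p = 0.0421), and Syn1 without NAC array 2 (−0.24, adjusted p = 0.0458).

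The same comparison in the modafinil arrays, which share no array with the vehicle comparison, tested 52 members. There 15 were higher in NAC, against 24.4% of all tested probe sets, and 12 lower, against 19.4%. The regions did not overlap for 20 members, against 31.7% of all. Among the calls of both sets, 12 were higher in both, 12 lower in both and 0 called in opposite directions, which is 70.6% of the vehicle calls and 88.9% of the modafinil calls. The 12 higher in both include Cplx3, which passed the filter only through NAC. The same shares over all probe sets were not computed, so this agreement is a description. Syt2 differed by −1.88 (SE 0.09, adjusted p = 8.2e-09), with VTA arrays at 8.86 to 9.04 and NAC arrays at 6.92 to 7.37. Vamp1 differed by −1.68 (SE 0.20), Syt9 by −1.59 (SE 0.16) and Stxbp6 by −1.40 (SE 0.13). Syt6 differed by 1.75 (SE 0.15), Cplx2 by 1.74 (SE 0.17) and Stx1a by 1.08 (SE 0.24). Vamp2 passed in these arrays, at 9.69 to 10.05 in VTA and 10.21 to 10.52 in NAC (difference 0.48, SE 0.09, adjusted p = 0.00057), but not with the mean of its probe sets (0.33, adjusted p = 0.0597). Also past the test was Syn3 (0.33, adjusted p = 0.0152). Cplx3 and Syt10 passed the filter only through their NAC arrays, so that they had to differ. Their means differed by 2.19 and 0.96, as a description, although the count of 15 includes them. Both were also among the members compared for overlap. Cplx1 did not pass (−0.11, SE 0.14, adjusted p = 0.551). Whether a regional difference itself changed with treatment is given below as the difference of the modafinil changes.

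Of 22 called members with another tested probe set in vehicle, 17 had another called the same way and 3 had one called the opposite way, which were Stx6, Stxbp5 and Vamp4. In the modafinil arrays 12 of 17 had another called the same way, and Vamp4 had one called the opposite way.

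Other genes of the release pathway were read from lists. Over all tested probe sets 28.7% were higher in vehicle NAC and 27.8% lower, and no list was tested against these shares. Of 19 active zone genes tested, 8 were higher in vehicle NAC and 2 lower, with a median difference of 0.24. Erc2 and Pclo, scaffolds of the active zone, were higher by 1.25 and 1.23, and Cadps and Cadps2, which prime dense-core vesicles, were lower by differences of −0.92 and −0.87. Of 20 other vesicle proteins tested, 5 were higher and 8 lower, among them Synpr (1.74), Sv2b (1.37), Doc2a (−1.37) and Syngr2 (−0.92). Of 9 SNARE disassembly and cofactor genes, which include the member Stxbp5l, 2 were higher and 3 lower, with Vti1b at 0.30, Snapin at −0.52 and the SNARE-disassembling ATPase Nsf at −0.46. Of 17 vesicle endocytosis genes, 2 were higher (Sh3gl3, 0.33, and Ap2b1, 0.29) and 7 lower, led by Dnm3 (−0.90) and Itsn1 (−0.68). Of 4 vesicular transmitter transporters, Slc17a7 was higher (2.62), and Slc18a2, the monoamine transporter, and Slc17a6 were lower (−5.87 and −4.08). In the fits within a region, Slc18a2 was below the filter in NAC and Slc17a7 in VTA. Each passed the regional filter through the region where it is high, so the differences of both are a description.

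Cell type markers differed between the regions at the same time, where 28.7% of all tested probe sets were higher in vehicle NAC and 27.8% lower. In vehicle NAC, 8 of 8 tested striatal markers and 4 of 5 cortical markers were higher than in VTA. Lower were 9 of 11 dopamine neuron markers, 6 of 7 thalamic and midbrain excitatory markers and 9 of 10 oligodendrocyte markers. The fit within NAC kept only 5 dopamine markers, and the fit within VTA only 4 cortical markers. A marker below the filter in 1 region had to differ, so the dopamine and cortical counts are a description. Of 10 general neuron markers 1 was higher and 6 lower, of 8 astrocyte markers 1 and 6, of 8 microglia markers 7 and 0, and of 5 endothelial markers 0 and 2. The part of cell composition in the differences of the release genes was not tested.

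Within NAC, the arrays differed in cortical marker signal. The cortical markers averaged 8.53, 9.34, 8.50, 8.63 and 7.42 in the vehicle NAC arrays and 8.71, 6.96, 9.28, 9.27 and 9.12 in the modafinil NAC arrays. Vehicle array 5 and modafinil array 2 were the lowest. These were also the 2 lowest of the 10 NAC arrays for 6 of the 52 members tested there (11.5%), against 8.41% of all probe sets tested. The members were Cplx3 (6.86 and 6.05), Stx1a (9.21 and 9.27), Syt13 (8.50 and 7.99), Syt17 (7.57 and 7.63), Vamp1 (7.61 and 8.04) and Stxbp5l. They were the 2 highest for 3 members (5.77%, against 9.3% of all), which were Stx6, Stx16 and Syt10. Both counts were near the shares over all probe sets, and the differences from those shares were not tested. Syt6 had its lowest values, 7.64 and 7.69, in modafinil arrays 3 and 4. Those arrays had cortical levels of 9.28 and 9.27 and striatal levels of 11.01 and 10.59, where the modafinil NAC arrays ranged from 10.59 to 11.93. The part of cortical tissue in these members' NAC values was not tested.

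**Figure D3:**
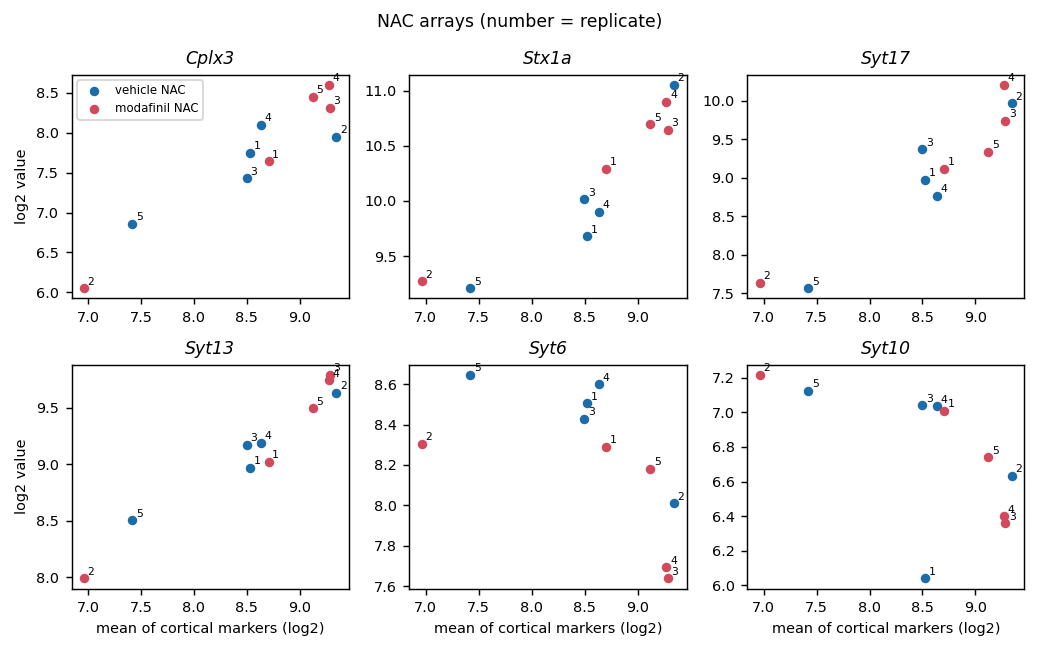
Log2 value (y axis) of 6 release genes against the mean log2 level of the cortical excitatory neuron markers (x axis) in the 10 NAC arrays, vehicle in blue and modafinil in red, numbered by replicate. Vehicle array 5 and modafinil array 2 have the lowest marker levels, 7.42 and 6.96, and the lowest Cplx3, Stx1a, Syt17 and Syt13. They are also the 2 lowest arrays for 8.41% of all probe sets tested.

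Since PFC values were on another scale, each member's position was also given as the percentile of its probe set within its own array. Over the vehicle groups the mean percentile was highest in VTA for 20 members, in NAC for 13 and in PFC for 22. For 6 of the VTA members every VTA array was above every array of the other regions, which were Stx16, Stx17, Syt2, Syt9, Vamp1 and Vamp4. That is 10.9% of the 55 members, and the same held in VTA for 12.5% of all 18193 genes. Syt2 stood at percentile 84.6 in VTA, 51.9 in NAC and 49.1 in PFC, and Vamp1 at 96.1, 71.9 and 76.3. Syt5 and Syt6 were so placed in NAC (3.64% of members, against 4.28% of all genes), with Syt6 at percentile 45.8 in VTA, 72.2 in NAC and 49.3 in PFC. In PFC 11 members were so placed (20.0%, against 7.67% of all genes), among them Snap25, Stx1a, Syt1, Syt4 and Syt16. For some of them the separation was small and near the top of the scale. The highest and lowest regional means lay 0.1 percentile points apart for Snap25, 0.9 for Syt1 and 1.1 for Syt4. Stx1a stood at percentile 84.0 in VTA, 92.9 in NAC and 99.3 in PFC, and Syt16 at 81.0, 91.4 and 95.6. These ranks compare each probe set with itself and carry no test. They allow for a different scale but not for a separate processing of the PFC arrays, which the labels neither state nor deny. The part of processing in the PFC ranks was not tested.

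In VTA, modafinil arrays differed from vehicle arrays by no amount that passed the test for any release gene. Of 50 tested with limma, 0 passed (smallest adjusted p = 0.0849), where 0.259% of all probe sets did. At an unadjusted p under 0.05 there were 9, 2 higher and 7 lower, and 21.1% of all probe sets were under that value. Values were lower in 37 members and higher in 13, with a median of −0.06 against −0.05 over all probe sets. Syt17 had the smallest p. It read 9.77, 10.00, 9.30, 9.91 and 9.39 in vehicle and 8.79, 8.91, 9.12, 9.15 and 9.48 in modafinil arrays, which overlapped (difference −0.58, SE 0.15, adjusted p = 0.0849). Syn3, a synapsin, read 9.27, 9.61, 9.39, 8.94 and 9.25 in vehicle and 8.68, 8.73, 9.09, 8.88 and 8.99 in modafinil arrays. Modafinil arrays 3 and 5 lay above the lowest vehicle array (difference −0.42, SE 0.12, adjusted p = 0.0948). Syt7 read 10.18, 10.38, 10.22, 10.71 and 10.62 in vehicle and 11.43, 10.79, 10.95, 10.77 and 10.62 in modafinil arrays, where array 5 lay within the vehicle range (difference 0.49, SE 0.15, adjusted p = 0.112). In a fit of all 36 arrays together Syt7 and Syn3 did pass, at adjusted p = 0.0331 and 0.0401.

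The dopamine marker level also differed between the treatment groups. It ranged from 8.20 to 9.78 in the vehicle VTA arrays, the lowest being array 4, and was 7.32, 7.77, 7.93, 7.68 and 8.74 in the modafinil VTA arrays, so that 4 of 5 modafinil arrays lay below every vehicle array. Of the 13 dopamine markers tested all had a lower value with modafinil and 0 passed the test. At an unadjusted p under 0.05 there were 12 of them, against 21.1% of all probe sets. All 10 oligodendrocyte markers tested also had lower values, with 0 past the test and 3 at an unadjusted p under 0.05. The thalamic and midbrain excitatory markers averaged 9.40 to 10.06 in vehicle and 10.25 to 10.76 in modafinil VTA arrays. Of the 7 tested 0 passed, and 5 had an unadjusted p under 0.05. In the fit of all 36 arrays, the modafinil change was lower in VTA than in PFC for 2 dopamine markers. For 2 thalamic and midbrain markers it was higher in VTA than in PFC, and for 1 higher than in NAC, all past the test. With the dopamine marker level as a covariate, the change of Syt7 was 0.09 (SE 0.14), that of Syn3 −0.21 (SE 0.15), that of Syt17 −0.36 (SE 0.21), that of Stx3 −0.09 (SE 0.10) and that of Stxbp6 0.0077 (SE 0.26), all smaller than without it. Those of Stx6 (−0.27, SE 0.16) and Syt1 (0.21, SE 0.16) stayed near their values without it, and that of Syt8 was larger, 0.30 (SE 0.12). None of these 8 passed the test with the covariate. Marker level and treatment nearly coincide in these arrays, so this fit cannot tell them apart. The other members with higher values named here were Syt1 (0.25, adjusted p = 0.216), Stxbp6 (0.34, adjusted p = 0.343) and Syt8 (0.10). The other members at an unadjusted p under 0.05 were Syt4 (−0.19), Stx2 (−0.18), Vamp4 (−0.16), Stx3 (−0.19, adjusted p = 0.177), Stx6 (−0.26, adjusted p = 0.193) and Syt1. Stx6 read 9.60 to 9.74 in vehicle and 8.99 to 9.62 in modafinil arrays.

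**Figure D4:**
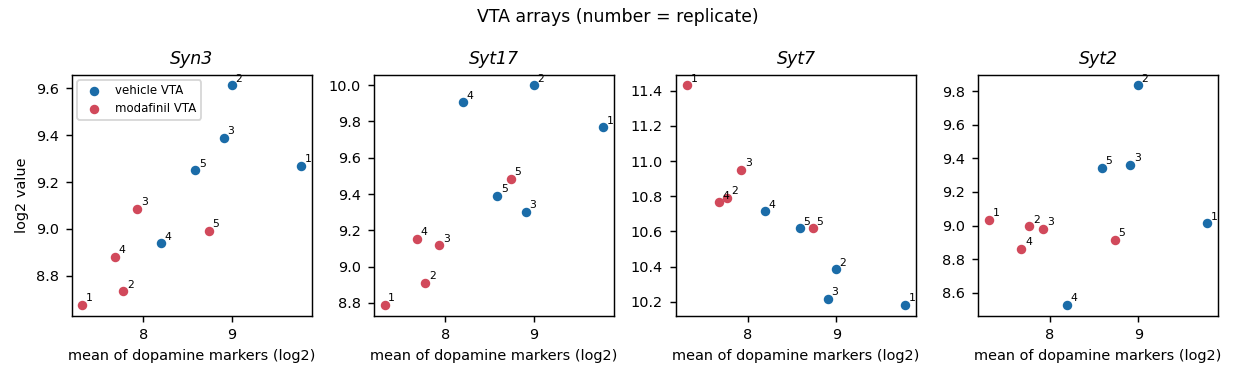
Log2 value (y axis) of Syn3, Syt17, Syt7 and Syt2 against the mean log2 level of the dopamine neuron markers (x axis) in the 10 VTA arrays, vehicle in blue and modafinil in red, numbered by replicate. The 4 arrays with the lowest marker levels, modafinil arrays 1 to 4, have the lowest Syt17 and the highest Syt7, and array 1, at 7.32, has the highest Syt7, 11.43. All 4 are modafinil arrays, so marker level and treatment cannot be told apart here.

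In NAC, 0 of 52 members passed the test with limma (smallest adjusted p = 1.0), and 0.0% of all probe sets did. At an unadjusted p under 0.05 there were 2 members, Syt6 and Syt5, both lower, which is 3.85% against 3.23% of all probe sets. Syt6 read 8.50, 8.01, 8.43, 8.60 and 8.65 in vehicle and 8.29, 8.30, 7.64, 7.69 and 8.18 in modafinil arrays, which overlapped (difference −0.42, SE 0.16, adjusted p = 1.0). Syt5 read 8.47 to 8.67 in vehicle and 8.25 to 8.56 in modafinil arrays (difference −0.18, SE 0.08). Syt12 and Syn3 both had a difference of −0.12. Higher values were 0.26 for Cplx1 and for Syt1, 0.22 for Snap47 and 0.20 for Cplx2, with SE of 0.14, 0.19, 0.14 and 0.15. NAC arrays varied more than VTA arrays in single members: Cplx3 read 6.05 to 8.60 and Syt17 7.63 to 10.21 in the modafinil NAC arrays. Their changes were 0.19 with an SE of 0.42 and 0.28 with an SE of 0.48. All 7 cortical and all 10 general neuron markers tested had higher values and 7 of 8 striatal markers lower values with modafinil in NAC, 0 of them past the test, and their part in the members' values was not tested.

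In PFC, with 8 arrays per group, 0 of 51 members passed (smallest adjusted p = 0.278), against 0.0518% of all probe sets. There were 7 members at an unadjusted p under 0.05, 3 higher and 4 lower, which is 13.7% against 11.8% of all probe sets. Vamp2 had the smallest p. It ranged from 10.34 to 10.59 (median 10.52) in vehicle and from 10.53 to 10.80 (median 10.65) in modafinil arrays, which overlapped, and differed by 0.17 (SE 0.05, adjusted p = 0.278). Its other probe set differed by −0.07 (SE 0.09). Cplx3 ranged from 6.79 to 7.34 (median 6.98) in vehicle and from 6.99 to 7.92 (median 7.23) in modafinil arrays (difference 0.29, SE 0.11, adjusted p = 0.362). Its highest value was that of modafinil array 3. Syt8 differed by 0.11 and Stxbp2 by 0.13. Snap23 differed by −0.17, Stx8 by −0.14 and Syn2 by −0.13, with adjusted p between 0.349 and 0.38. Stxbp6 ranged from 10.85 to 11.45 in vehicle and from 10.00 to 11.07 in modafinil arrays (difference −0.29, SE 0.12). Its low value was that of modafinil array 3, whose striatal marker level of 10.90 stood apart from the 8.67 to 9.13 of the other modafinil PFC arrays. Without that array and vehicle array 4, which also stood apart, the difference of Stxbp6 was −0.12 and 0 members passed. All 10 oligodendrocyte and all 7 striatal markers tested had higher values with modafinil in PFC, 0 of them past the test, and their part in the members' values was not tested.

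**Figure D5:**
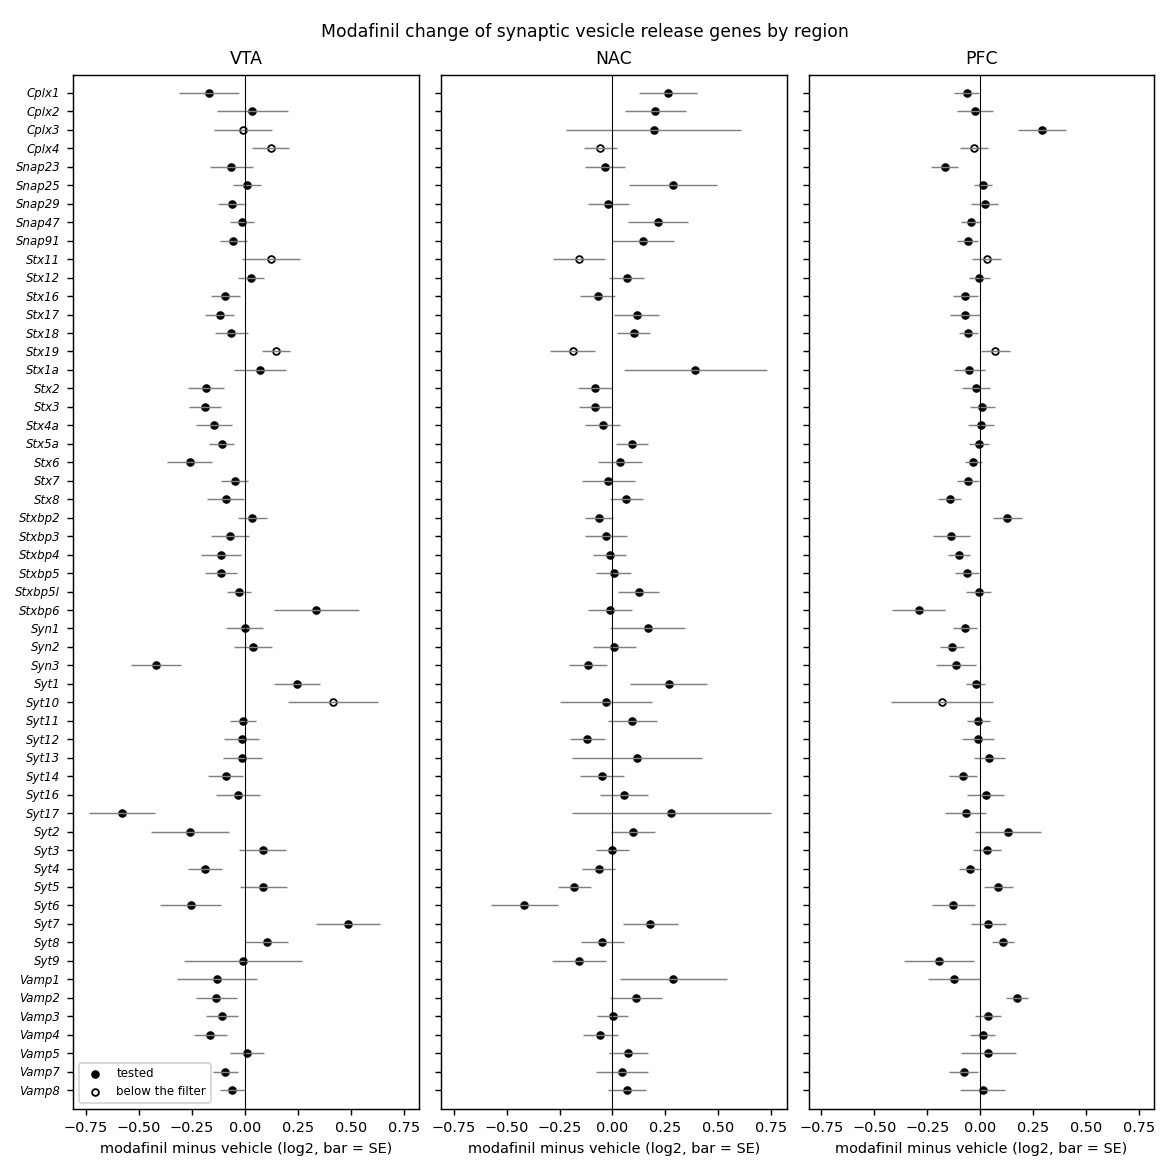
Modafinil minus vehicle (log2, x axis) for each release gene (y axis) in VTA, NAC (5 arrays per group) and PFC (8 per group), with bars for the standard error from limma. Open points are members below the filter, and 0 members passed the test in any region. Syt17 in VTA (−0.58) and Syt7 in VTA (0.49) lie farthest from 0 among those tested.

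Over the 3 regions together, with region as a factor, 0 of 51 members passed (smallest adjusted p = 0.124), against 0.84% of all probe sets, and 7 had an unadjusted p under 0.05 (13.7%, against 16.6% of all). Syn3 differed by −0.20 (SE 0.06, adjusted p = 0.124), with −0.42 in VTA, −0.12 in NAC and −0.11 in PFC. Syt6 differed by −0.24 (SE 0.08, adjusted p = 0.133), Syt4 by −0.09 and Snap23 by −0.10. Syt7 differed by 0.20 (SE 0.07, adjusted p = 0.177), Syt1 by 0.13, Vamp2 by 0.07 and Syt8 by 0.06.

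The modafinil change did not differ between regions by an amount that passed the test for any member. Between VTA and NAC 0 of 51 passed, against 0.274% of all probe sets, with 4 at an unadjusted p under 0.05 (7.84%, against 11.2% of all). The smallest p were those of Stx5a (−0.20, SE 0.08, adjusted p = 0.311), Cplx1 (−0.43, SE 0.17) and Stx6 (−0.29, SE 0.12), where a negative value means a lower change in VTA. Between VTA and PFC 0 passed, against 0.903%, with 5 unadjusted (9.8%, against 12.1% of all), and Stxbp6 (0.63, SE 0.22, adjusted p = 0.193), Syt7 (0.45, SE 0.17) and Vamp2 (−0.31, SE 0.12) led. Between NAC and PFC 0 passed, against 0.0%, with 5 unadjusted (9.8%, against 4.91% of all), and Syt5 (−0.26), Stx8 (0.21) and Snap47 (0.26) led, all at adjusted p = 0.914. The comparisons of regions with each other share arrays.

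Within each region, the related lists held no gene that passed either. With modafinil, 0 of 19 active zone genes, 0 of 20 other vesicle proteins, 0 of 9 SNARE cofactors, 0 of 17 endocytosis genes and 0 of 3 vesicular transporters tested passed with limma in VTA, NAC or PFC. At an unadjusted p under 0.05 these lists held 8, 4, 1, 3 and 1 genes in VTA, 0 each in NAC and 1 each in PFC. Of the 20 other vesicle proteins, 18 had a lower value with modafinil in VTA (median −0.05, against −0.05 over all probe sets, of which 36.2% were higher). In NAC 16 had a higher value (median 0.10, against −0.01 over all, of which 43.5% were higher). Of the differences between regions, that of the active zone priming factor Unc13b passed between VTA and PFC (0.67, SE 0.16, adjusted p = 0.0328), as the only gene of these lists in any of the 3 region differences.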

How the data were processed

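Messenger RNA was measured on 36 single-colour Affymetrix arrays of 6 groups. The authors deposited log2 values per probe set, computed with RMA per the submitters' processing notes, and the version is not given here. RMA subtracts background, normalizes arrays together and summarises probes. PFC values were on another scale, and a single RMA run over all regions is neither stated nor denied in the labels. Per the labels' protocols, VTA and NAC arrays used RNA pooled from 2 pieces where its integrity number was above 7. Raw intensities and behaviour were not analysed here.

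Of 45101 probe sets, 34945 had 1 symbol, and the Entrez identifier of 34741 was found in the gene table used to update symbols. Each comparison was fitted over the 27022 probe sets with a mean at or above the 40th percentile of its own arrays, using limma 3.58.1 (lmFit, then eBayes; R 4.3.3), Benjamini-Hochberg adjustment and a threshold of 0.05, and was tested on simulated data. Members, lists and tests were chosen with earlier results of these data known. The genes named are up to 12 members per direction in the regional comparison and a fixed set of main isoforms, and 4 smallest p-values per direction in each treatment comparison (3 in all for differences between regions). Other members are named to complete their family, chosen after their values were seen. Marker and pathway lists came from general knowledge, and a list level is the mean of its genes. The number of arrays limits the precision.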

Additional observations from a re-analysis of the deposited data

Results flagged for a closer look

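In 139 groups of arrays of a named member, 8 held a highest or lowest array whose gap to its neighbour was a larger share of the range than Dixon's 95% limit allows, where chance gives about 1 in 20. In vehicle VTA array 4, Syt9 read 10.27 with the next array at 8.85, and Stx1a read 9.73 with the next at 9.18. In vehicle VTA, Stx6 read 9.60 in array 2 with the next at 9.70, and Stx16 read 9.95 in array 3 with the next at 9.87. In vehicle NAC array 1, Snap25 read 12.29 with the next at 13.27, and Stx16 read 9.36 with the next at 9.496. In modafinil VTA array 2, Stx6 read 8.99 with the next at 9.45. In modafinil PFC array 3, Stxbp6 read 10.00 with the next at 10.71. Vehicle NAC array 1 also had the lowest 99th percentile of signal of the NAC arrays, 11.43, where the highest was 11.93.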

How the results depend on the processing

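Every count of members kept within 1.5 times its value under the alternatives run, except 1: in a fit of all 36 arrays, 2 members (Syt7 and Syn3) changed with modafinil in VTA, against 0. Under the alternatives of scaling, filter, probe set and fit, 10 to 15 members were higher and 18 to 25 lower in vehicle NAC, and 12 to 16 and 11 to 15 in modafinil NAC. Leaving out each array gave 12 to 13 and 16 to 24 in vehicle, 14 to 16 and 10 to 14 in modafinil, and 0 in each treatment comparison and in each difference between regions. Snap25 between the vehicle regions turned to 0.0135 after quantile normalization and 0.12 with the mean of its probe sets, and ranged from −0.246 to 0.0568 without single arrays. Vamp4 in the modafinil arrays turned to 0.0447 with the mean of its probe sets. Syn3 in vehicle ranged from −0.0634 to 0.105 and Syn1 in the modafinil arrays from −0.005 to 0.181 without single arrays. In vehicle, Vamp4 was not called (adjusted p = 0.215), nor was Syt13 (adjusted p = 0.149), with the mean of their probe sets. The cause was not tested for any of these. With the replicate block, 13 members were higher and 21 lower in vehicle NAC, 16 and 12 in modafinil NAC, and 0 changed with modafinil. In the labels the samples share only a number. Each array's deviations from its group mean, over the tested probe sets, were correlated between arrays. For same-numbered vehicle and modafinil arrays of a region these correlations of deviations ran from −0.526 to 0.267. For same-numbered VTA and NAC arrays they ran from 0.014 to 0.247 in vehicle and from −0.007 to 0.263 in modafinil. The deviations of VTA arrays 1, 2, 3 and 5 in vehicle, and 3 and 5 in modafinil, correlated best with those of the NAC array of their own number. Whether such arrays share a mouse was not tested. The number of arrays limits all treatment comparisons. The alternative without 2 PFC arrays was chosen after seeing the data.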
